A study of Mus musculus with 15 samples.

Results

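Followed here through 15 libraries are 8 genes of G protein signalling, the regulators of G protein signalling Rgs1, Rgs2, Rgs10, Rgs18 and Rgs19, the G protein gamma subunit Gngt2, the receptor P2ry10 and the adenylyl cyclase Adcy3. Their rows were found by exact name in the deposited table, and all 8 of 42454 entries were present. The 8 genes had been chosen by their normalized counts in these libraries and the group differences seen in them, so their levels and differences are given as a description, no p-value is given for them, and nothing is read from the counts of calls among them. All 8 passed the filter on low values, a mean of at least 100 normalized counts over the 15 libraries, which 8656 entries passed.

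The libraries came from macrophages of mouse ear skin, with 3 libraries in each of 5 groups. All mice carried a GFP reporter and an inducible Cre recombinase (creERT2) at the Cx3cr1 locus with a Cre-dependent tdTomato reporter at R26, and all received tamoxifen, 3 weeks before the left ear was punched. Skin was collected 10 days after the punch. The unpunched right ears gave interstitial macrophages (IM) and nerve-associated macrophages (sNAM), and the punched left ears gave both again after injury (injIM and injsNAM) as well as recruited nerve-associated cells (recsNAM). CD11b+ CD64+ lineage-negative cells were sorted by the 2 reporters: negative for both for interstitial cells, positive for both for resident nerve-associated cells, and GFP alone for recruited cells. The reporters mark Cx3cr1 expression and its history, not contact with a nerve. In the labels, the reporter tags go with the ear rather than the population: injIM is tagged with both reporters and sNAM with neither, against titles and gates, and groups here follow the titles. The tissue came from 3 mice, and with no map from mice to libraries, p-values measure the spread between these libraries, which may be partly technical.

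A G protein-coupled receptor that binds its ligand loads the alpha subunit of a G protein with GTP and frees the beta-gamma pair, and both act on effectors such as adenylyl cyclase, which makes cyclic AMP. Regulators of G protein signalling (RGS proteins) speed GTP hydrolysis by alpha subunits and so end the signal. In macrophages and other leukocytes this circuit is known for its part in chemotaxis and in restraint of inflammatory responses by cyclic AMP.

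Rgs1, Rgs2 and Rgs18 lie on the minus strand of chromosome 1 (GRCm38, the assembly of mm10), Rgs2 at chr1:143999338-144004149, Rgs1 at chr1:144244669-144249104 and Rgs18 at chr1:144752683-144775427. Together with Rgs13 and Rgs21 they are the 5 protein-coding genes of a stretch of 776 kb. Rgs10 is at chr7:128373621-128419506 and Rgs19 at chr2:181688419-181694537, both on the minus strand. Gngt2 is at chr11:95841772-95845734, P2ry10 at chrX:107088492-107104974 and Adcy3 at chr12:4133116-4213525, all on the plus strand. Values are totals over each gene, and no isoform was resolved.

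The sequences just upstream of Rgs2, P2ry10 and Adcy3 are shown because Rgs2 and P2ry10 had their highest levels, and Adcy3 its lowest, in the same groups, and because cyclic AMP response genes are read through a short promoter element. Each is the 250 bases before an annotated start, 5′ to 3′ on the gene's strand, from RefSeq on GRCm38.p6. Capitals mark TGACG, the core of the element that CREB and ATF factors bind, or its complement CGTCA.
Rgs2 (chr1:144004150-144004399, minus strand): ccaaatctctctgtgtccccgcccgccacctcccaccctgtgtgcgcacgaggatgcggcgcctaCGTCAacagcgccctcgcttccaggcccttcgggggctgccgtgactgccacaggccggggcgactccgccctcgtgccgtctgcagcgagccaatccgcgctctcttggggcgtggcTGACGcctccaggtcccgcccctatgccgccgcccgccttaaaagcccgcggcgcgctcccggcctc
P2ry10, upstream start (chrX:107088242-107088491, plus strand): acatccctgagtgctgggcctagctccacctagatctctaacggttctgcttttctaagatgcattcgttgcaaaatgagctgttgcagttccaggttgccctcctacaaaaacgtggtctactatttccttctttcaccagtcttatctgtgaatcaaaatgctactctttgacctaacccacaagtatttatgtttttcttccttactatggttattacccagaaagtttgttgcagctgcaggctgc
P2ry10, downstream start (chrX:107089083-107089332, plus strand): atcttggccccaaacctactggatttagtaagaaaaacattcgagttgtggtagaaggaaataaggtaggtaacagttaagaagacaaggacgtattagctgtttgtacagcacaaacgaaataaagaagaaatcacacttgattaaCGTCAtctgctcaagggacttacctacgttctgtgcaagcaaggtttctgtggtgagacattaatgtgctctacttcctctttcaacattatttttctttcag
Adcy3, upstream start (chr12:4133147-4133396, plus strand): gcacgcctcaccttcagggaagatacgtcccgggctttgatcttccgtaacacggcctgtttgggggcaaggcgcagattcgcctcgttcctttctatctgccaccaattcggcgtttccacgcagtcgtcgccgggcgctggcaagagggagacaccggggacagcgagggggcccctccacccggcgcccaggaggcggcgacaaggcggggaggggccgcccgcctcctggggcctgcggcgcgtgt
Adcy3, downstream start (chr12:4133903-4134152, plus strand): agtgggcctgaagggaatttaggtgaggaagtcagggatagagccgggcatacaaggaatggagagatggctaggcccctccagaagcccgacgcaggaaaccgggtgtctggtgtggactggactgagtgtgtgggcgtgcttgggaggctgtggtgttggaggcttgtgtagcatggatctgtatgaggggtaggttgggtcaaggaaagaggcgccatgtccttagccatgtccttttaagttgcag
The Rgs2 sequence holds 2 cores, which begin at positions -185 and -67 from the start. The downstream P2ry10 start has 1, at position -103, and the upstream P2ry10 start and both Adcy3 starts have none in this window. Over both strands, 17.8% of 32851 RefSeq promoters of this length hold the core. The AP-1 element TGANTCA occurred once among these 5 sequences, before the upstream P2ry10 start, against 6.75% of all promoters. The PU.1 core GAGGAA, bound by a factor of myeloid cells, was found before the downstream start of P2ry10 and that of Adcy3 and in 23.3% of all promoters. No binding was measured here, and a match of letters is not a bound site.

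The libraries held 16.9 to 23.8 M reads (M, 10 to the power of 6), apart from sNAM replicates 2 and 3 with 5.64 and 9.09 M. The sNAM and injsNAM libraries stood apart from the others: pairs within sNAM correlated at 0.644 to 0.776 and within injsNAM at 0.762 to 0.772 over tested genes, against 0.934 to 0.983 in the other groups. Of the tested genes, 11.6%, 25.8% and 3.89% were at 0 in the 3 sNAM libraries, between 4.26% and 8.79% in injsNAM, and at most 0.751% elsewhere. Macrophage markers were present in every group (10 of 10 genes), at a summed 18354 to 30635 CPM (counts per M reads). Differences below come from 1 limma fit on log2(normalized count + 100) over all 15 libraries, in which libraries of the more variable groups had less weight (0.175 for sNAM and 0.311 for injsNAM, against 1.67 to 3.43). Called means an adjusted p under 0.05 over all genes tested, and differences on this scale understate the change of low genes.

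Rgs1, which limits the response of leukocytes to chemokines, was highest in the nerve-associated groups. In the unpunched ear, its normalized counts were 2969, 2139 and 1720 in the IM libraries and 9466, 15990 and 9758 in the sNAM libraries. In the punched ear they were 1493, 1461 and 1536 (injIM), 15169, 5359 and 10097 (injsNAM) and 5086, 3150 and 4481 (recsNAM). Every sNAM, injsNAM and recsNAM library was above every IM and injIM library. From the highest, the group means were sNAM 11738 ± 3685 (SD, n = 3), injsNAM 10208 ± 4906, recsNAM 4239 ± 990, IM 2276 ± 636 and injIM 1497 ± 37.7. In that order, sNAM and injsNAM overlapped, and no other neighbours did. The difference was 2.31 ± 0.53 (log2, SE) for sNAM against IM, 2.57 ± 0.40 for injsNAM against injIM and 1.42 ± 0.21 for recsNAM against injIM. In interstitial macrophages the level was lower on the punched side, by -0.54 ± 0.17.

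Rgs2, which acts mainly on Gq and is itself induced by cyclic AMP and calcium signals, was high in 4 libraries. The unpunched ear gave 2080, 1423 and 1288 (IM) and 8222, 2218 and 10791 (sNAM). The punched ear gave 1552, 878 and 1730 (injIM), 10270, 2659 and 13763 (injsNAM) and 2592, 1609 and 2781 (recsNAM). Replicate 2 of sNAM and of injsNAM lay within the range of recsNAM, while replicates 1 and 3 of both groups were 8222 or more. By their means the groups came in the order injsNAM (8897 ± 5678), sNAM (7077 ± 4399), recsNAM (2327 ± 629), IM (1597 ± 424) and injIM (1387 ± 450), and every neighbouring pair overlapped. The difference was 1.84 ± 0.75 for sNAM against IM, 2.36 ± 0.57 for injsNAM against injIM and 0.72 ± 0.29 for recsNAM against injIM.

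The T cell genes Cd3e and Cd3g, which encode parts of the T cell receptor complex, were high in the same 4 libraries. Their summed normalized count was 2289 and 4631 in sNAM replicates 1 and 3 and 4724 and 3974 in injsNAM replicates 1 and 3. It was 49.5 in replicate 2 of sNAM, 200.0 in replicate 2 of injsNAM, and 18.6 to 96.7 in the 9 libraries of the other groups. In the replicates with little Cd3e and Cd3g, Rgs1 was 15990 in sNAM and 5359 in injsNAM, above all IM and injIM libraries, and P2ry10 was 3010 and 99.0. That sNAM library was also the highest of the 15 in mast cell markers: the 11 genes, among them Cpa3, Mcpt4 and Hdc, summed to 2082 CPM there, against 0.161 and 167 in sNAM replicates 1 and 3, 15.4 to 201 in injsNAM, 214 to 266 in recsNAM, 595 to 805 in IM and 274 to 282 in injIM. Summed over 15 T and NK cell markers, IM held 390 to 468 CPM, injIM 345 to 463, sNAM 502 to 783, injsNAM 400 to 828 and recsNAM 494 to 566, with Cd2 and Ncr1 at 0 in every group and Trac at 0 in all groups but injsNAM. Without Il7r the 5 sums were 332 to 393, 142 to 234, 23.8 to 440, 66.6 to 525 and 73.3 to 138. Of these, Cd4 made up most of the IM and injIM sums. The normalized count of Cd4 was 5709 to 6655 in IM and 2287 to 3823 in injIM. It was 111 to 1566 in sNAM, 372 to 1265 in injsNAM and 1109 to 2127 in recsNAM. Summed over 11 dendritic cell markers, among them Ccr7 and Flt3, sNAM held 1874 to 3158 CPM and injsNAM 465 to 997. The sums were 380 to 566 in recsNAM, 279 to 639 in IM and 109 to 267 in injIM. Clec9a and Kmo were at 0 in injsNAM. Without Ccr7, sNAM held 802 to 1013 CPM, still above IM at 262 to 613. The injsNAM sums without Ccr7 were 199 to 486 and overlapped those of IM. For recsNAM they were 122 to 195, below every IM library and within the range of injIM. Immediate-early and dissociation stress genes (21 in the list) summed to 15282 to 15652 CPM for sNAM, 12937 to 16458 for IM, 8663 to 13583 for injsNAM, 8174 to 12295 for recsNAM and 9026 to 10868 for injIM. The part of T cells, mast cells, dendritic cells or stress during sorting in the levels of Rgs1, Rgs2, P2ry10 and Gngt2 was not tested, and in sorted bulk libraries a change in the cells present and in RNA per cell cannot be told apart.

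**Figure D1:**
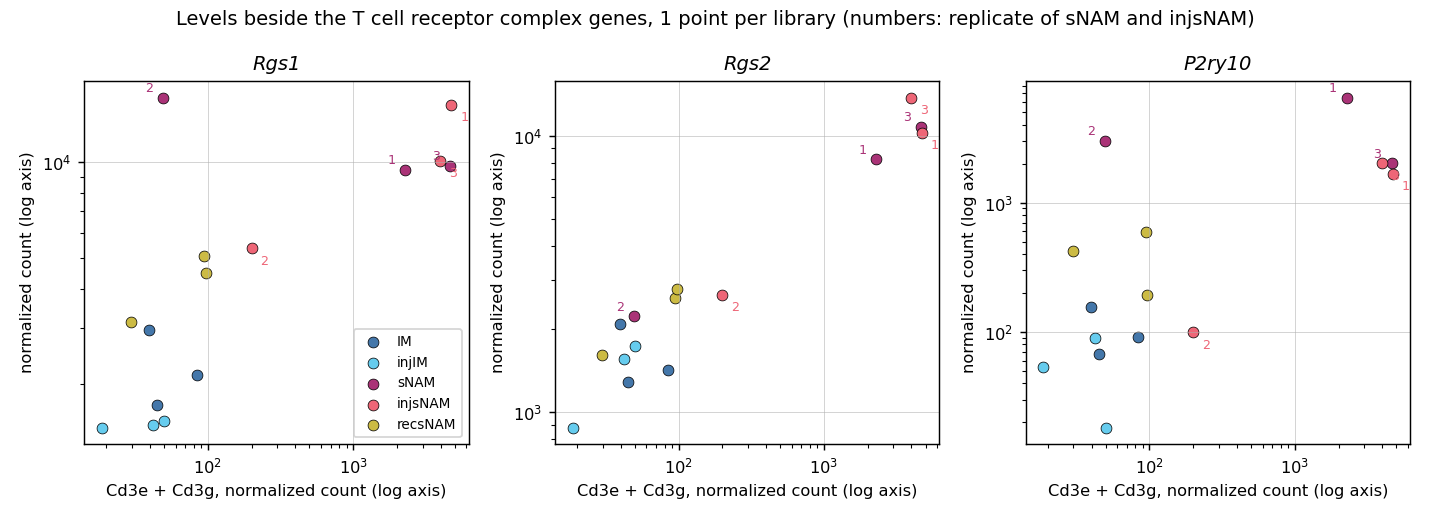
Normalized count of Rgs1, Rgs2 and P2ry10 (y axis, log) against the summed normalized count of the T cell genes Cd3e and Cd3g (x axis, log), 1 point per library, coloured by group, with the replicate number beside each sNAM and injsNAM point. For Rgs2 the 4 highest points are also the 4 highest in Cd3e and Cd3g, while for Rgs1 sNAM replicate 2 is the highest point with a summed Cd3e and Cd3g of 49.5.

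Rgs10, a small regulator that dampens inflammatory activation of macrophages and microglia, read between 757 and 2655 in all libraries. Normalized counts were 2540, 2030 and 2655 (IM), 1695, 1356 and 2247 (injIM), 2358, 757 and 2618 (sNAM), 1613, 1966 and 2592 (injsNAM) and 1890, 990 and 2305 (recsNAM). The group means ran from 1728 ± 672 in recsNAM to 2409 ± 333 in IM, and all 5 groups overlapped. The difference for sNAM against IM was -0.48 with a 95% interval from -1.78 to 0.82, and for injIM against IM -0.45 with an interval from -0.86 to -0.03.

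Rgs18, best known from platelets and other blood cells, did not exceed 707 in any library. Its values were 432, 240 and 356 (IM), 253, 282 and 171 (injIM), 0, 707 and 618 (sNAM), 265, 532 and 297 (injsNAM) and 188, 95.9 and 131 (recsNAM). The group means were 442 ± 385 (sNAM), 365 ± 146 (injsNAM), 343 ± 97.1 (IM), 235 ± 57.8 (injIM) and 139 ± 46.7 (recsNAM), and neighbours in this order overlapped. The sNAM group held both the lowest and the highest library of the series, and the count of 0 in sNAM replicate 1 allows up to 2.89 normalized counts, a limit for counting error only. In recsNAM it was below every injsNAM library, at a difference of -0.94 ± 0.56. Platelet markers were near the floor in every library, at a summed 0 to 12.9 CPM over 8 genes.

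Rgs19, which acts on Gi proteins and binds the adaptor Gipc1, was steady in 3 groups and scattered in the other 2. It read 790, 865 and 668 in IM, 875, 810 and 982 in injIM and 890, 945 and 1010 in recsNAM. The sNAM libraries held 537, 0 and 736, and the injsNAM libraries 795, 443 and 65.9. The group means ran from 948 ± 60.1 in recsNAM through 889 ± 86.7 in injIM, 774 ± 99.4 in IM and 435 ± 364 in injsNAM to 424 ± 381 in sNAM, with overlap between neighbours. The 0 of sNAM replicate 2, the library with the fewest reads, allows up to 8.73 normalized counts. Differences were -1.21 ± 0.65 for sNAM against IM and -1.19 ± 0.50 for injsNAM against injIM.

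**Figure D2:**
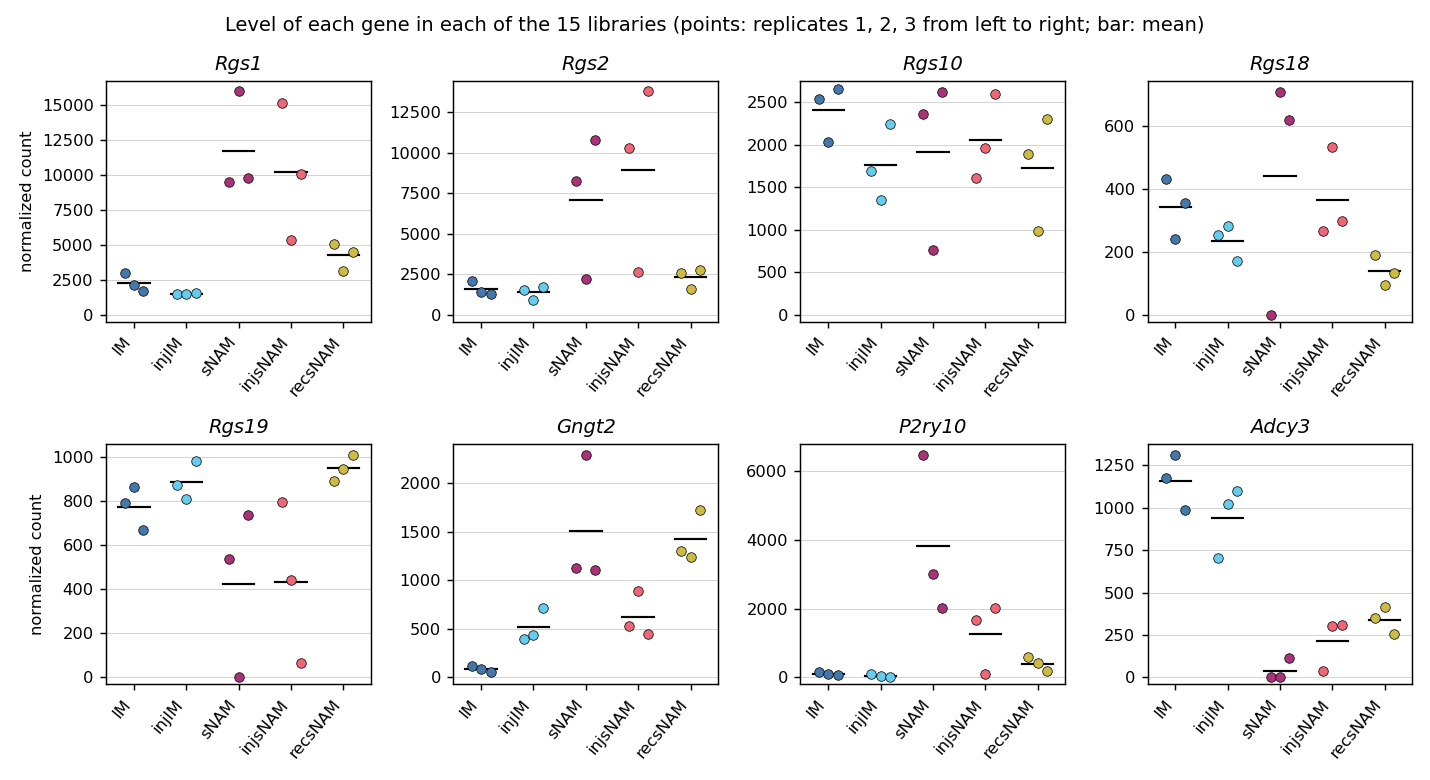
Normalized count (y axis, linear, one scale per panel) of each of the 8 genes in the 15 libraries by group (x axis), with replicates 1, 2 and 3 from left to right and a bar at the group mean. Rgs1 lies above all IM and injIM libraries in every nerve-associated library, Rgs2 in sNAM and injsNAM is split by replicate, and Adcy3 is highest in all IM and injIM libraries.

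Levels of different RGS genes were compared per kb of the principal transcript. Of the summed level of 21 RGS genes, Rgs10 made up 58.4 ± 5.9% in IM, 53.2 ± 4.3% in injIM, 41.3 ± 6.2% in recsNAM, 29.4 ± 12.8% in injsNAM and 25.2 ± 9.8% in sNAM. Rgs1 took the reverse order except that IM and injIM lay within their spread, with shares of 12.6 ± 2.6% (IM), 10.6 ± 1.6% (injIM), 24.1 ± 2.6% (recsNAM), 30.0 ± 8.0% (injsNAM) and 40.9 ± 23.7% (sNAM). Rgs2 held 11.2 ± 1.9%, 12.1 ± 2.3%, 16.6 ± 0.12%, 30.7 ± 12.4% and 26.6 ± 12.7% of the family in these groups. The sNAM mean of Rgs1 rests on replicate 2, where Rgs1 alone made up 68.1% of the family. In sNAM replicates 1 and 3 its share was 29.9% and 24.8%, inside the injsNAM range of 23.9% to 39.0%, and Rgs2 was the largest part of the family at 33.0% and 34.8%. Rgs2 was also the largest in injsNAM replicate 3, at 41.4%. The summed level of the family was 8204 ± 2075 normalized counts per kb for sNAM and 8768 ± 3146 for injsNAM, and 4692 ± 569, 3741 ± 657 and 4640 ± 1235 for IM, injIM and recsNAM. With all exons of a gene joined as its length, an alternative chosen after seeing the data, the share of Rgs10 in IM was 50.8% and in sNAM 20.3%. The mean share of Rgs2 then exceeded that of Rgs1 in IM, injIM, recsNAM and injsNAM. In injIM and injsNAM it already did so with the principal transcript (12.1% against 10.6%, and 30.7% against 30.0%).

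**Figure D3:**
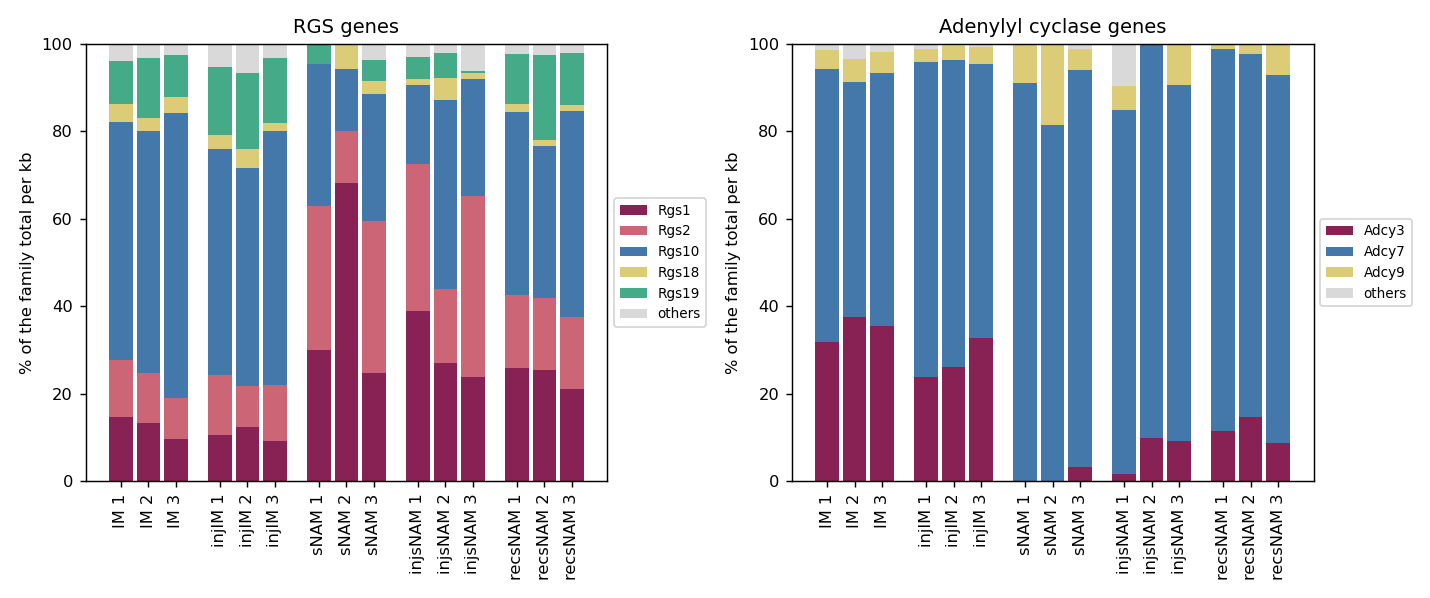
Share of each gene in the summed level per kb of its family (y axis, %) in each library (x axis), for 21 RGS genes and for 10 adenylyl cyclase genes. Rgs10 is the largest part of the RGS level in all IM and injIM libraries, and the mean share of Adcy3 in the adenylyl cyclase level is 35.0% for IM and 1.08% for sNAM.

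Of the 16 other RGS genes, 5 had a mean of 100 or more in any group and 2 passed the filter. Rgs14, a scaffold that links Gi and Ras signals, read 115 to 178 in recsNAM, 79.5 to 196 in IM and 168 to 278 in injIM, and was at 0 in 5 of the 6 sNAM and injsNAM libraries, with 160 in injsNAM replicate 2. Rgs3 likewise read 107 to 209 over IM and injIM and was at 0 in 4 of the 6. Rgs9, a regulator known from photoreceptors and striatum, read 562, 584 and 525 in sNAM replicate 3 and injsNAM replicates 1 and 3, and 55.7 or less in all other libraries. Rgs11 exceeded 100 in 2 libraries only, sNAM replicate 3 at 179 and injsNAM replicate 3 at 659. Rgs12 was 167 to 253 in injsNAM and 144 or less in all libraries outside injsNAM except sNAM replicate 3 at 278. Neither Rgs9 nor Rgs14 was called in any comparison. Within the chromosome 1 cluster, Rgs13 reached 59.1 in 1 library and Rgs21 never exceeded 0.963, so the 2 genes that flank Rgs1 on either side did not share its level.

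P2ry10, a receptor for lysophosphatidylserine found on lymphocytes and other leukocytes, was low in interstitial macrophages and high in most nerve-associated libraries. Interstitial libraries held 155, 91.3 and 67.4 (IM) and 89.5, 53.4 and 18.2 (injIM). Nerve-associated libraries held 6485, 3010 and 2019 (sNAM), 1663, 99.0 and 2009 (injsNAM) and 590, 423 and 194 (recsNAM). All sNAM and recsNAM libraries and 2 of 3 injsNAM libraries were above every IM and injIM library, and injsNAM replicate 2 was within the range of IM. The group mean in sNAM, 3838 ± 2345, was 36.7 times that in IM (104 ± 45.0), and in recsNAM, 402 ± 199, it was 7.49 times that in injIM (53.7 ± 35.7). The injsNAM mean was 1257 ± 1018, so that the order was sNAM, injsNAM, recsNAM, IM and injIM, with overlap between injsNAM and recsNAM and between IM and injIM. On the log2 scale of the fit, sNAM against IM was 4.13 ± 0.87, injsNAM against injIM 2.58 ± 0.66 and recsNAM against injIM 1.65 ± 0.34. Every injsNAM library was below every sNAM library, at a difference of -1.96 with a 95% interval from -4.17 to 0.25. The neighbouring gene P2ry10b shares 113 of the 2979 stretches of 50 bases in P2ry10 (3.79%), and how the counting treated reads from them is not given in the sources used here.

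Gngt2, a gamma subunit of cone photoreceptors that is also made by leukocytes, had the largest difference of the 8 genes between the ears in interstitial macrophages. It read 116, 88.4 and 57.1 in IM and 396, 436 and 713 in injIM, with no overlap, a 5.92-fold ratio of means and a difference of 1.69 ± 0.19. Nerve-associated libraries held 1123, 2297 and 1110 (sNAM), 532, 892 and 444 (injsNAM) and 1301, 1245 and 1730 (recsNAM). The means were 1510 ± 681 (sNAM), 1425 ± 266 (recsNAM), 623 ± 238 (injsNAM), 515 ± 173 (injIM) and 87.1 ± 29.3 (IM), and in this order sNAM overlapped recsNAM and injsNAM overlapped injIM. The difference was 3.04 ± 0.61 for sNAM against IM, 1.33 ± 0.24 for recsNAM against injIM and 0.22 ± 0.47 for injsNAM against injIM. The injury difference was higher in interstitial macrophages and lower in nerve-associated ones (-1.13 ± 0.74), and the difference of the 2 was -2.82 ± 0.77. Among 12 gamma subunit genes, compared per kb, Gngt2 took 2.06 ± 0.67% (IM), 11.5 ± 4.4% (injIM), 24.7 ± 6.6% (sNAM), 13.9 ± 5.9% (injsNAM) and 29.7 ± 2.1% (recsNAM) of the summed level. Gng2, a common gamma subunit of leukocytes, took 32.1 ± 2.9%, 25.7 ± 3.1%, 6.61 ± 7.64%, 15.8 ± 3.3% and 13.8 ± 3.4% in the same order.

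Gngt2 shares 234 exonic bases with Abi3, an adaptor gene of macrophages on the opposite strand. Abi3 read 3.38, 2.92 and 14.7 (IM), 80.5, 160 and 266 (injIM), 810, 812 and 79.6 (sNAM), 714, 403 and 87.3 (injsNAM) and 617, 628 and 569 (recsNAM). Both genes were lowest in IM. The strand setting of the counting is not given in the sources used here, so reads of the shared part cannot be told apart between them.

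Adcy3, an adenylyl cyclase of cilia and olfactory neurons that is also found in macrophages, had the opposite pattern to Rgs1. Interstitial libraries held 1177, 1311 and 984 (IM) and 701, 1021 and 1099 (injIM). Nerve-associated libraries held 1.93, 0 and 113 (sNAM), 40.5, 301 and 309 (injsNAM) and 348, 416 and 257 (recsNAM). Every IM and injIM library was above every other library, and the order of the means was IM, injIM, recsNAM, injsNAM and sNAM, with overlap between neighbours except injIM and recsNAM. The group mean in IM, 1157 ± 164, was 30.2 times that in sNAM (38.3 ± 64.6), where sNAM replicates 1 and 2 held 2 and 0 reads. The differences were -3.27 ± 0.62 for sNAM against IM, -1.85 ± 0.48 for injsNAM against injIM and -1.23 ± 0.24 for recsNAM against injIM. Per kb, Adcy3 made up 35.0 ± 2.9% (IM), 27.6 ± 4.6% (injIM), 11.6 ± 2.9% (recsNAM), 6.88 ± 4.66% (injsNAM) and 1.08 ± 1.84% (sNAM) of the summed adenylyl cyclase level. Adcy7, the cyclase typical of blood cells, made up the larger part in every group, from 58.0 ± 4.2% in IM to 87.7 ± 5.5% in sNAM. The group means of the summed level of the 10 cyclases lay between 633 ± 21.5 (recsNAM) and 728 ± 103 (injIM) normalized counts per kb. Single libraries, among them sNAM libraries, lay outside this range. Adcy3 shares 1380 exonic bases with Cenpo, a centromere gene on the opposite strand. Cenpo read 87.3 to 145 in IM, 101 to 128 in injIM, 0 to 2.91 in sNAM and 46.2 to 163 in recsNAM. In injsNAM it read 275, 311 and 0, where Adcy3 read 40.5, 301 and 309. Reads of the shared part cannot be told apart.

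**Figure D4:**
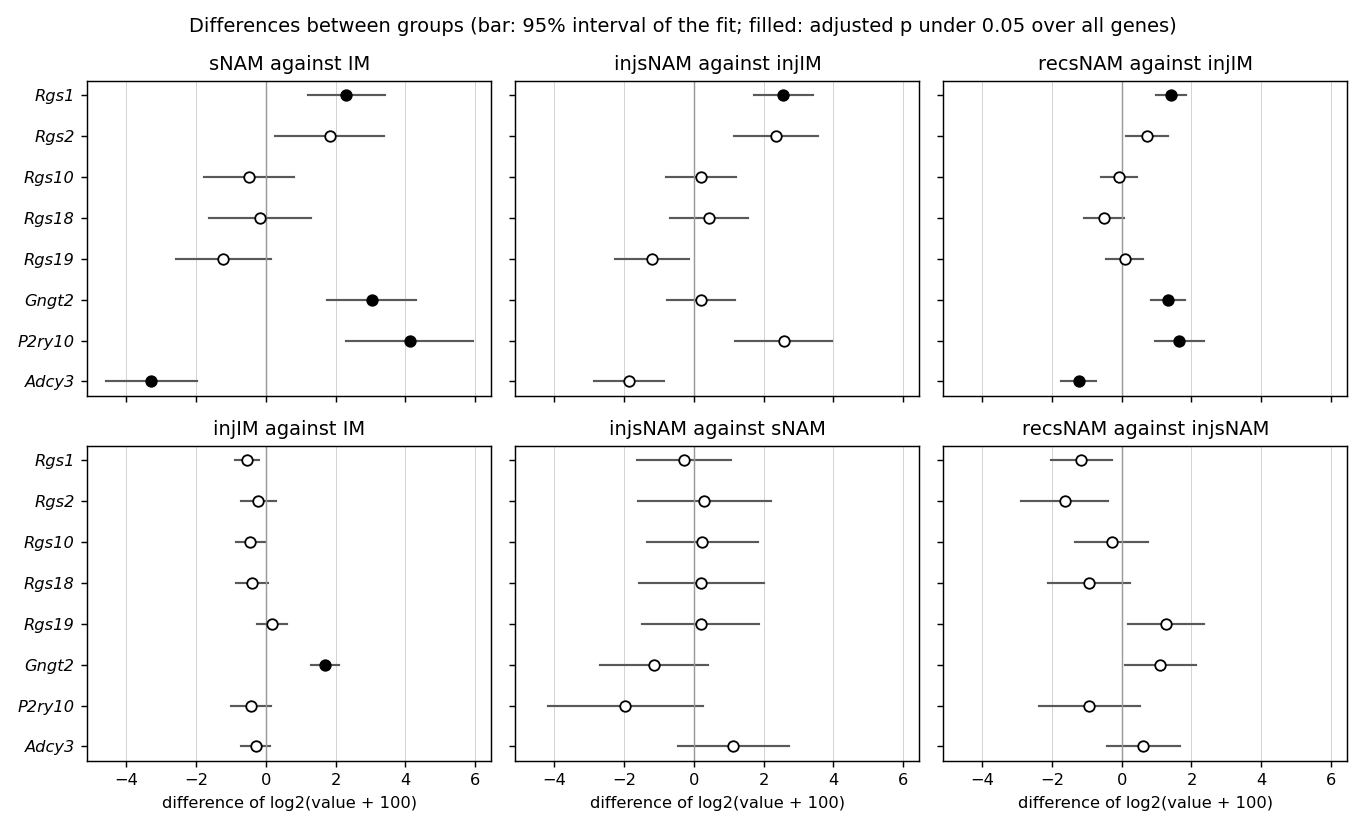
Difference of log2(normalized count + 100) between groups (x axis) for each of the 8 genes (y axis) in 6 comparisons, with bars for the 95% interval of the fit and filled points for an adjusted p under 0.05 over all genes. Rgs1 is to the right of 0 and Adcy3 to the left in the 3 comparisons of nerve-associated with interstitial macrophages, and the intervals are widest where sNAM is compared.

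For sNAM against IM, 4 of the 8 genes were called, Rgs1, Gngt2 and P2ry10 as higher and Adcy3 as lower, beside 1.05% of all genes tested. For injsNAM against injIM 1 of 8 was called (Rgs1), beside 0.485%. For recsNAM against injIM 4 of 8 were called, the same genes in the same directions as for sNAM against IM, beside 7.53%. For injIM against IM 1 of 8 was called (Gngt2), beside 8.18%. None was called for injsNAM against sNAM or recsNAM against injsNAM, or in the difference of the 2 injury responses, where limma called 0% of all genes in each and 586, 619 and 444 of 8656 had an unadjusted p under 0.05. In those 3, edgeR on the recovered reads called 147, 8 and 27 genes in all and DESeq2 725, 154 and 228, among them Gngt2 in the difference of injury responses (both tools) and Rgs1 and Rgs2 for recsNAM against injsNAM (DESeq2). The comparisons share groups. With a pseudocount of 10 or 1 in place of 100, 0 of the 8 genes were called for sNAM against IM, and with no filter on low values 2 were (Gngt2 and Adcy3), while edgeR called 3 (all but Adcy3) and DESeq2 5 (the 4 and Rgs2). Without sNAM replicate 1, or without sNAM replicate 3, 0 of the 8 genes were called for sNAM against IM, and Rgs1 was also lost there without IM replicate 2, sNAM replicate 2 or injsNAM replicate 3. Without injsNAM replicate 1 or 3, Rgs1 was not called for injsNAM against injIM. DESeq2, or leaving out injsNAM replicate 2, called P2ry10, Rgs1 and Rgs2 there. A filter at 500, or leaving out injIM replicate 3, called Rgs1 and Rgs2. Without recsNAM replicate 1 or with no filter P2ry10 was not called for recsNAM against injIM. For injIM against IM, Rgs1 was called as lower with a pseudocount of 10 or 1 and with TMM scaling. It was also called there without IM replicate 3, injIM replicate 3, injsNAM replicate 2, or recsNAM replicate 1 or 2. Without injIM replicate 3, Rgs10 was called as lower too. With 1 pooled spread or with edgeR, 0 of 8 were called for recsNAM against injIM and for injIM against IM. DESeq2 called 2 of 8 for recsNAM against injIM (P2ry10 and Rgs1) and 0 of 8 for injIM against IM.

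Over the 15 libraries, which share groups and depth, the members themselves ran together in part. Rgs1 correlated with P2ry10 at Pearson's r = 0.890 and with Rgs2 at 0.805, and with Adcy3 at -0.907, on log2(normalized count + 100). Values for Rgs10 with other members lay between -0.437 and 0.336, and for Rgs18 between -0.405 and 0.142. Of all tested genes outside the 8, the nearest to Rgs1 was Serpinb9, an inhibitor of granzyme B (r = 0.948), and the next was an entry whose symbol is written as a date in the table (0.939). The nearest to Rgs2 were the T cell genes Cd7 (0.963, by rank, Spearman's rho, 0.838) and Cd3g (0.953, by rank 0.75). For P2ry10 they were Klrk1, an activating receptor of NK and T cells (0.926, by rank 0.946), and the junction gene Cldn1 (0.915, by rank 0.775). Cldn1 is also on the list of Langerhans cell markers. Gngt2 was nearest to Il7r (0.925) and Pmepa1 (0.920). Adcy3 was nearest to the lysosomal genes Slc48a1 (0.959) and Lamp1 (0.944). Rgs10 was nearest to Arl4c (0.895) and Parvb (0.873), and Rgs18 to Zmynd19 (0.883) and Zfp330 (0.882). Each is the highest of a search over all tested genes and describes these libraries only.

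The rest of the pathway was read from 8 lists of 132 genes (other RGS proteins, G protein subunits, receptors for lipids, nucleotides and related ligands, adenylyl cyclases, cyclic AMP effectors and phosphodiesterases, receptor kinases and arrestins, and other effectors), of which 73 passed the filter. For injIM against IM, 12 of the 73 were called, 4 higher and 8 lower, beside 4.15% of all genes higher and 4.03% lower. For recsNAM against injIM, 14 were called, 8 higher and 6 lower, beside 3.19% higher and 4.34% lower. For sNAM against IM, injsNAM against injIM, injsNAM against sNAM, recsNAM against injsNAM and the difference of injury responses limma called 0 of 73, with 17, 11, 5, 7 and 4 at an unadjusted p under 0.05. In those 5, edgeR called 6, 1, 2, 0 and 1 of the 73 and DESeq2 13, 5, 8, 0 and 3. The median difference of the 73 was -0.05 for injIM against IM (0.03 over all genes tested) and -0.00265 for recsNAM against injIM (-0.02). The lists were drawn up with earlier results of these libraries known.

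In interstitial macrophages, 5 of the 8 pathway genes that fell after injury encode receptors, from 19 receptor genes tested. The prostaglandin E2 receptor gene Ptger4, which signals through cyclic AMP, read 1732, 2325 and 1534 in IM and 603, 804 and 372 in injIM. It fell by 1.53 ± 0.23 (limma adjusted p = 0.000212). The oxysterol receptor Gpr183 fell by 0.87 ± 0.18 (limma adjusted p = 0.00446), the acid-sensing receptor Gpr65 by 0.85 ± 0.21 (0.0161), and the nucleotide receptors P2ry6 by 0.88 ± 0.11 (4.18e-05) and P2ry13 by 0.99 ± 0.26 (0.0233). The lysophosphatidic acid receptor Lpar1 rose from 146 to 397 in IM to 729 to 796 in injIM, by 1.44 ± 0.24 (limma adjusted p = 0.000705).

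Among the other classes in that comparison, 2 of 9 alpha subunit genes fell, Gnai1 by 1.37 ± 0.26 (limma adjusted p = 0.00193) and Gna15, a promiscuous alpha subunit of blood cells, by 1.238 ± 0.263 (0.0051). Pde4b, the main phosphodiesterase that degrades cyclic AMP in macrophages, read 18443 to 19218 in IM and 10361 to 12628 in injIM, and fell by 0.73 ± 0.09 (4.72e-05). The receptor kinase Grk3 rose by 1.34 ± 0.17 (limma adjusted p = 5.84e-05), the phosphoinositide 3-kinase subunit Pik3cb by 0.98 ± 0.22 (0.00805) and the phospholipase Plcb2 by 0.80 ± 0.22 (0.0304). Of the 12 calls, 8 were kept when each of the 6 libraries compared was left out in turn; Gpr65 and Plcb2 were lost without IM replicate 1 or 3 or injIM replicate 1 or 2, P2ry13 without IM replicate 1 or 3 or injIM replicate 1 or 3, and Pik3cb without IM replicate 3. With a spread pooled over groups or with edgeR on recovered reads, 0 of 73 were called. The immediate-early and dissociation stress genes, at 12937 to 16458 CPM in IM and 9026 to 10868 in injIM, were lower in injIM, as were 8 of the 12 called genes. Mast cell markers were also lower in injIM (595 to 805 CPM in IM and 274 to 282 in injIM), as were dendritic cell markers (279 to 639 and 109 to 267). The 9 neutrophil markers summed to 101 to 140 CPM in IM and 612 to 3663 in injIM, of which Mmp9 was the main part: without it the sums were 78.3 to 120 and 101 to 130, and Ly6g was at 0 in both groups. The part of stress genes or of these cells in the calls was not tested.

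Of the genes called for recsNAM against injIM, 5 were cyclic AMP effectors or phosphodiesterases (of 14 tested) and 7 were receptors (of 19). Crem, a transcription factor gene that cyclic AMP induces, read 4291, 3746 and 4053 in injIM and 10120, 9572 and 14128 in recsNAM. It rose by 1.44 ± 0.16 (limma adjusted p = 1.52e-05) and was called under all 24 alternatives, at a highest adjusted p of 0.0174. Crem also read 8212 to 11000 (sNAM), 8929 to 12344 (injsNAM) and 4140 to 5811 (IM), without a call in those comparisons (limma adjusted p = 0.256 for sNAM against IM and 0.0673 for injsNAM against injIM). The phosphodiesterase genes Pde4d (1.13 ± 0.24, limma adjusted p = 0.00532) and Pde3b (1.01 ± 0.27, 0.026) and the protein kinase A subunit Prkar1a (0.41 ± 0.12, 0.0418) rose, and the subunit Prkar2b fell by 1.17 ± 0.27 (0.00915).

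Among receptors in that comparison, Lpar6 rose from 821, 991 and 453 in injIM to 3648, 3591 and 2231 in recsNAM, by 1.95 ± 0.27 (limma adjusted p = 0.000167). Lpar1 (1.04 ± 0.30, 0.0372), the sphingosine 1-phosphate receptor S1pr1 (0.87 ± 0.24, 0.0326) and the proton and lipid receptor Gpr132 (0.79 ± 0.17, 0.00592) also rose. P2ry10b, the neighbour of P2ry10 on the X chromosome, fell by 1.01 ± 0.28 (limma adjusted p = 0.0309), while P2ry10 itself was higher in recsNAM. P2ry12 fell by 0.78 ± 0.22 (0.0366) and P2ry2 by 0.79 ± 0.18 (0.00929), as did the gamma subunit Gng2 (-0.81 ± 0.24, 0.042) and the alpha subunit modulator Gpsm2 (-0.81 ± 0.23, 0.0359). Of these 14 calls, Crem and Lpar6 were kept when each of the 6 libraries compared was left out in turn, and 3 calls in all were left without recsNAM replicate 1 and 4 without injIM replicate 1. With a spread pooled over groups or with edgeR 1 of 73 was called. Neutrophil markers read 612 to 3663 CPM in injIM and 175 to 273 in recsNAM, and without Mmp9 101 to 130 and 161 to 263. Fibroblast markers (7 genes) read 315 to 1282 CPM in injIM and 54.7 to 311 in recsNAM. The 8 Schwann cell markers read 2274 to 2958 and 905 to 1204, nearly all of it Pmp22, and without that gene 7.23 to 11.5 and 11.4 to 15.1. The part of these cells in the calls was not tested.

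**Figure D5:**
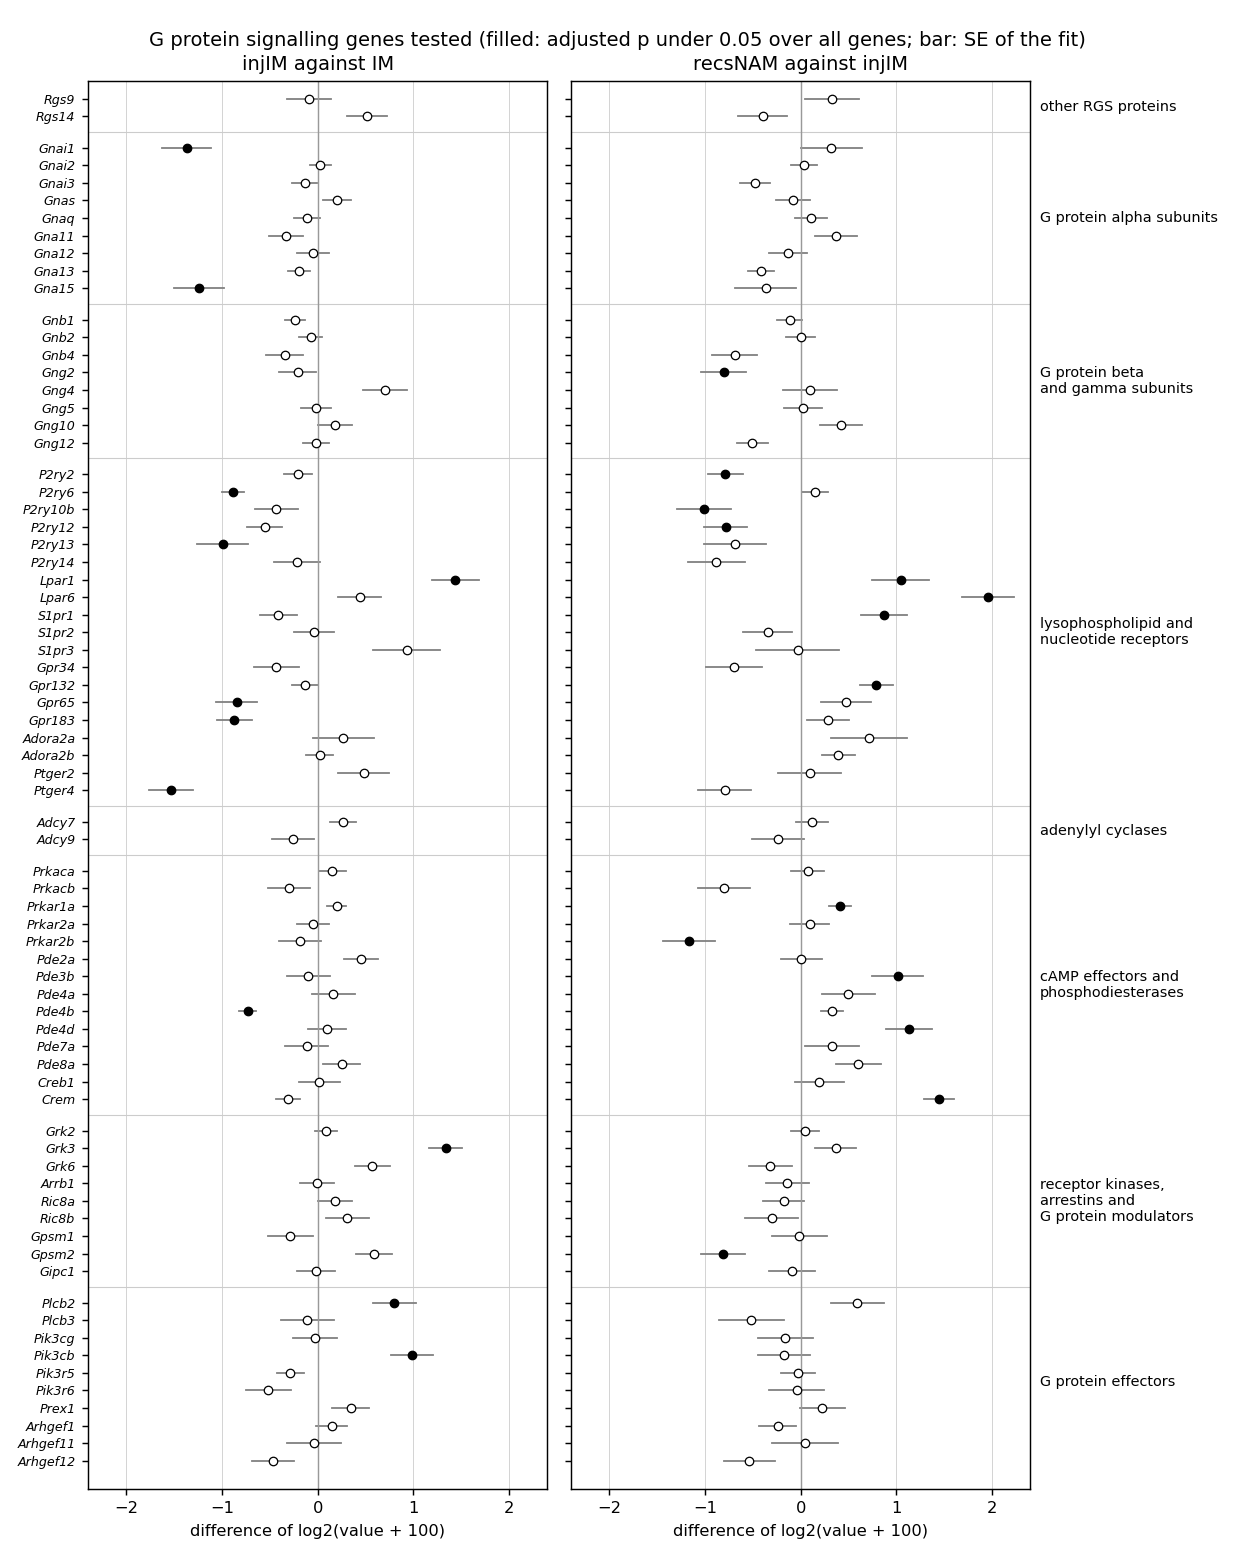
Difference of log2(normalized count + 100) (x axis) with its SE for the 73 tested genes of the pathway lists (y axis), for injIM against IM and recsNAM against injIM. Filled points passed an adjusted p of 0.05 over all genes, 12 on the left and 14 on the right, and Ptger4, Lpar6 and Crem are among the farthest from 0.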

How the data were processed

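RNA-seq of sorted ear skin macrophages gave 15 libraries in 5 groups of 3, made from 250 pg of RNA with 13 PCR cycles, per the labels' protocols. The authors deposited a normalized signal: read counts of each gene divided by 1 factor per library. Dividing by the smallest value of a library recovered whole reads for 100% of values above 0, to a tolerance of 0.01. The submitters' processing notes name DESeq2 1.24.0, R 3.6.1, STAR 2.7.2b, cutadapt, bcl2fastq 2.18 and the build mm10. Which counter, gene annotation and strandedness were used is not given in the sources used here. Amplified reads carry no molecular identifiers, so limits for a count of 0 (3 reads) cover counting error only.

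Groups follow the titles. Genes with a mean of 100 or more (8656 of 42454) were fitted with limma 3.58.1 in R 4.3.3 (trend, robust empirical Bayes, 1 mean and 1 array weight per group) on log2(value + 100), with Benjamini-Hochberg adjustment over all genes in each of 7 comparisons. The tests treated the 15 libraries as independent, although the groups share mice. Alternatives were pseudocounts of 10 and 1, no filter, a filter at 500, TMM scaling, 1 pooled spread, edgeR 4.0.16 and DESeq2 1.42.0 on recovered reads, a replicate block, and leaving out each library. The scripts were tested on simulated data.

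The 8 genes, the pathway lists and the marker lists were chosen with earlier results of these data known. Pathway genes were named when called in a comparison, other RGS genes when a group mean reached 100, and for each member the 2 tested genes with the highest Pearson's r, apart from 1 result that is not reported here. Gene positions are from RefSeq (GRCm38.p6), and lengths are of the principal GENCODE M21 transcript. Promoter sequences were matched by symbol, for 5 of the 8 genes.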

Additional observations from a re-analysis of the deposited data

How the results depend on the processing

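No called difference changed sign under any alternative. Counts of calls depended on how the spread was modelled. For sNAM against IM, the 0 calls among the 73 pathway genes became 1 with no filter, 11 with a pooled spread, 6 with edgeR and 13 with DESeq2, and the 91 calls among all genes became 0 with a pseudocount of 10 or 1, 727 (pooled), 343 (edgeR) and 922 (DESeq2). For injIM against IM, 12 pathway calls became 4 (no filter), 0 (pooled), 0 (edgeR) and 2 (DESeq2), and 708 calls among all genes became 315, 18, 4 and 64. For recsNAM against injIM, 14 became 5, 1, 1 and 2, and 652 became 362, 22, 9 and 121. For injsNAM against injIM, 0 pathway calls became 2 (no filter), 1 (filter at 500), 1 (pooled), 1 (edgeR) and 5 (DESeq2), and 42 among all genes became 67 (pseudocount of 1), 102 (no filter), 69 (pooled) and 314 (DESeq2). For injsNAM against sNAM, 0 pathway calls became 3 (pooled), 2 (edgeR) and 8 (DESeq2), and 0 among all genes became 4 (no filter), 363, 147 and 725. For recsNAM against injsNAM, 0 among all genes became 30 (pseudocount of 1), 12 (no filter), 2 (pooled), 8 (edgeR) and 154 (DESeq2). For the difference of injury responses, 0 pathway calls became 1 (edgeR) and 3 (DESeq2), and 0 among all genes became 6 (no filter), 4 (pooled), 27 (edgeR) and 228 (DESeq2). The cause was not tested.

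Leaving out each library in turn gave 0 to 1 pathway calls for sNAM against IM, 8 to 15 for injIM against IM, 3 to 21 for recsNAM against injIM (3 without recsNAM replicate 1, 21 without injIM replicate 3), 0 to 2 for injsNAM against injIM, 0 to 1 for recsNAM against injsNAM, and 0 for injsNAM against sNAM and the difference of injury responses. Among all genes these ranges were 0 to 107 (0 without sNAM replicate 1), 399 to 826 (399 without IM replicate 3), 272 to 899 (272 without recsNAM replicate 1), 2 to 75 (2 without injsNAM replicate 3), 0 to 42, 0 to 1 and 0.

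With the replicate number as a block, pathway calls were 23 for recsNAM against injIM, 15 for injIM against IM and 1 for injsNAM against injIM, and 0 in the 4 other comparisons. Among the 8 genes the block added P2ry10 and Rgs2 as higher for injsNAM against injIM, Rgs1 and Rgs10 as lower for injIM against IM, and Rgs2 as higher for recsNAM against injIM. Calls among all genes were 1211, 928 and 70 in those 3, 100 for sNAM against IM and 0 in the other 3. Of 30 pairs of libraries with the same number in different groups, 9 had correlated deviations over 0.1 (r from -0.02 to 0.388). Pairs with different numbers had r from -0.447 to 0.127. Of the 15 libraries, 12 correlated best with a library of their own number, a hint from the data and not the design. The numbers were therefore not treated as pairing the libraries. Rgs18 had 0 reads in sNAM replicate 1, and Rgs19 and Adcy3 had 0 in sNAM replicate 2, the shallowest library at 5.64 M reads.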
